A study of Mus musculus with 20 samples.

Results

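The miRNA cargo of cauda epididymosomes was compared between adult males that had been exposed to early-life stress and undisturbed males, in the sequencing run deposited as made without size selection. Epididymosomes are the extracellular vesicles that the epithelium of the epididymis releases into the lumen, and the cauda is its distal, sperm-storing end. All 59035 annotated RNAs of that run's table were used, in 10 of the 20 samples of the series, and 868 of them were mature miRNAs. The remaining 10 samples are the same libraries sequenced again and are used only for values set side by side.

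The animals were male mice of 9 months, which the labels give under a tag on time from an injection and which is read here as age, and no strain or genotype is given. MSUS stands for a paradigm in which pups lose their mother at unforeseeable times for 3 h per day over 14 days after birth, while the dam is herself exposed to unforeseeable stress. Control litters were left untouched. MSUS animals carried the numbers 2, 4, 6, 8 and 14, and Control animals the numbers 3, 5, 7, 9 and 11. Sperm were first removed by swim-up, vesicles were pelleted at 120000 rcf, and small RNA libraries were made from them. No label says whether animals shared a litter, so litter could not be taken into account. Each p-value sets the difference between the groups against the spread between these animals.

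A mature miRNA is cut from a hairpin precursor whose 5p and 3p arms can each give a product. Bases 2 to 8 of the mature strand, the seed, pair with target mRNAs, so miRNAs with one seed are treated as a family. In the epididymis, miRNAs of epithelial origin are packed into vesicles that meet the sperm during maturation and storage.

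Mature sequences were taken from RefSeq (GRCm38.p6), which held 198 of the 233 miRNAs tested. The most abundant ones are shown first, with the seed in capitals, because together they make up most of the cargo.
miR-148a-3p: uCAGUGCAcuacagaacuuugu
miR-10a-5p: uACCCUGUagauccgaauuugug
miR-10b-5p: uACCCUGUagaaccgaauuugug
miR-26a-5p: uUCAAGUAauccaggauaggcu
miR-21a-5p: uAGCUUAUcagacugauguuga
miR-99a-5p: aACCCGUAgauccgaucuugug
miR-200b-3p: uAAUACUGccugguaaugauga
miR-200c-3p: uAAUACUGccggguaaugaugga
The 2 members of the miR-10 pair share the seed ACCCUGU, and miR-200b-3p shares AAUACUG with miR-200c-3p.

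The let-7 family is printed because 5 of its members were among the 13 miRNAs with the smallest p. Each sequence below has 22 bases, and 8 of the 9 differ from let-7a-5p at 1 to 4 of them, outside the seed.
let-7a-5p: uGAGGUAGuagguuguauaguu
let-7b-5p: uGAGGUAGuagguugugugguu
let-7c-5p: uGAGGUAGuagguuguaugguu
let-7d-5p: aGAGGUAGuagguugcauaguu
let-7e-5p: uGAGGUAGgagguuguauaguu
let-7f-5p: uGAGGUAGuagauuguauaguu
let-7g-5p: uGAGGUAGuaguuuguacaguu
let-7i-5p: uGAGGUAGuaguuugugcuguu
miR-98-5p: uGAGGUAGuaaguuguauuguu
All 9 share the seed GAGGUAG. Reads that end early or carry an error at such a base can be assigned to the wrong member, so values of single let-7 members are less certain than their sum.

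The other sequences shown belong to miRNAs outside let-7 that had an unadjusted p under 0.05, and none of them shares its seed with another in this set.
miR-878-5p: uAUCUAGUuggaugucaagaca
miR-881-3p: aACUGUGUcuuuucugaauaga
miR-381-3p: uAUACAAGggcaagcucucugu
miR-223-3p: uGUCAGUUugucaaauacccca
miR-31-5p: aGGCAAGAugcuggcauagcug
miR-155-5p: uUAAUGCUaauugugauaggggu
The loci of miR-878-5p (chrX:66801554-66801575, minus strand) and miR-881-3p (chrX:66801954-66801975, minus strand) lie within one cluster of X-linked miRNA hairpins in GRCm38.p6. miR-223-3p comes from chrX:96242884-96242905 (plus strand), miR-31-5p from chr4:88910614-88910635 (minus strand), miR-155-5p from chr16:84714143-84714165 (plus strand) and miR-381-3p from chr12:109726870-109726891 (plus strand).

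Estimated counts per library ranged from 215231 to 871461, and those on miRNAs from 132139 to 575372. Control 9, Control 11 and MSUS 14 had 359201, 575372 and 505532 miRNA counts, the 3 highest values, followed by MSUS 6 with 355639. miRNAs took 52.4 to 72.2% of the counts of a library here and 10.9 to 17.0% in the table labelled as size-selected for miRNAs, which goes against the labels, so the tables are named by their labels. Of 33 transcripts of the epididymal epithelium, 23 had at least 1 rounded count in some library and 8 in all 10, among them Crisp1, Gpx3, Spink8, Adam7 and Akr1b7. The defensins Defb21 and Defb15 and the cystatins Cst11, Cst8 and Cst12 were at 0 in all libraries. Defb20, Defb22, Crisp4 and Lcn5 were near 0. All 20 sperm and spermatid transcripts had a count in some library, and 9 had counts in all 10, among them Prm2, Odf1 and Smcp. Spem1 was at 0 in 9 libraries and Tssk3 in 8. The summed level of the 20 was 249 to 347 CPM of all RNAs (counts scaled to 1000000 per library over all RNAs) in Control and 247 to 378 in MSUS. Of 13 blood cell transcripts 10 had counts in some library and 1, Cd74, in all. Lyz2 had counts in 9 libraries, the globin genes had at most 1.67, and Alas2, Ighm and Igkc were at 0 in all.

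**Figure D1:**
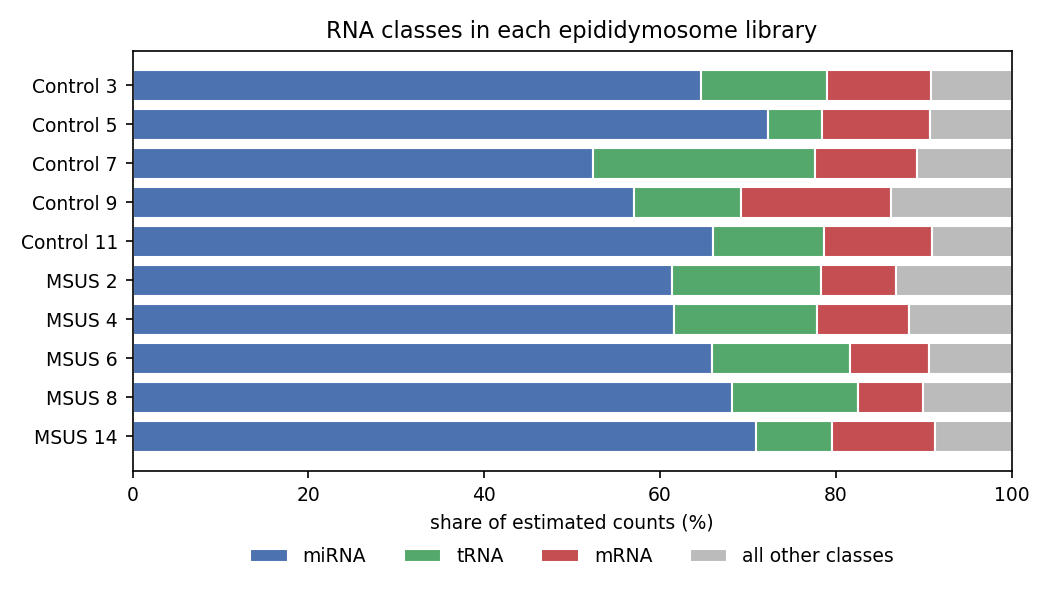
Share of the estimated counts (%, horizontal axis) on mature miRNAs, tRNAs, mRNA fragments and all other classes, in 5 Control and 5 MSUS libraries (one bar each). miRNAs made up 52.4 to 72.2% of every library, and mRNA fragments took 11.5 to 17.1% in Control and 7.31 to 11.7% in MSUS.

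A short set of miRNAs made up the cargo in both groups. In each library 6 or 7 miRNAs held 50% of miRNA counts and 34 to 40 held 90%. The 10 most abundant over all libraries took 65.4 to 70.4%, and all 10 were in the library's own top 10 in every library except MSUS 6, where 9 were. Levels of miRNAs are given as CPM, which are counts scaled to 1000000 miRNA counts per library after TMM scaling.

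miR-148a-3p, a miRNA abundant in many epithelia, was the most abundant in 6 libraries and miR-143-3p, typical of smooth muscle and stroma, in the other 4. Control libraries 3, 5, 7, 9 and 11 held 95101, 147289, 179144, 96455 and 78664 CPM of miR-148a-3p. MSUS libraries 2, 4, 6, 8 and 14 held 123058, 152634, 146366, 140093 and 79490 CPM. The lowest value of each group, in Control 11 and MSUS 14, came from the library with the most miRNA counts in its group, and the groups overlapped. MSUS over Control, the log2 fold change was 0.11 (SE 0.22, adjusted p = 0.956, edgeR).

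miR-143-3p ranged from 84481 to 125020 CPM in Control (median 98522) and from 84783 to 183009 in MSUS (median 99931). Its highest values were those of MSUS 6 (183009) and MSUS 14 (141386), and the other 3 MSUS libraries lay within the Control range. On the log2 scale the difference was 0.28 (SE 0.18, adjusted p = 0.862).

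The order below these 2 was miR-10a-5p, miR-26a-5p, miR-21a-5p, miR-10b-5p, miR-200b-3p, miR-99a-5p, miR-200c-3p and let-7f-5p. miR-10a-5p and miR-10b-5p come from the Hox gene clusters and miR-200b-3p and miR-200c-3p are hallmarks of epithelial cells. miR-10a-5p exceeded miR-26a-5p in 6 libraries and miR-200b-3p exceeded miR-99a-5p in 4, so these neighbours cannot be ordered. miR-10b-5p lay above miR-200b-3p in 9 libraries, and miR-200c-3p above let-7f-5p in all 10.

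Levels of the abundant miRNAs were close between the groups. miR-10a-5p stood at 75499 ± 2939 CPM in Control and 79845 ± 11062 in MSUS (SD, n = 5 each, log2 fold change 0.08, SE 0.11). For miR-26a-5p, a tumour-suppressive miRNA found in most tissues, the means were 71965 ± 5823 and 71602 ± 5618 CPM (log2 fold change -0.01, SE 0.10). Its 95% interval of -0.22 to 0.20 on the log2 scale was among the narrowest of all tested miRNAs.

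miR-200c-3p had 42246 ± 6330 CPM in Control and 36289 ± 4188 in MSUS, with 3 MSUS libraries below every Control library (log2 fold change -0.22, SE 0.12, adjusted p = 0.862). Its sign depended on the scaling, since it was 0.08 when the factors came from all RNAs.

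**Figure D2:**
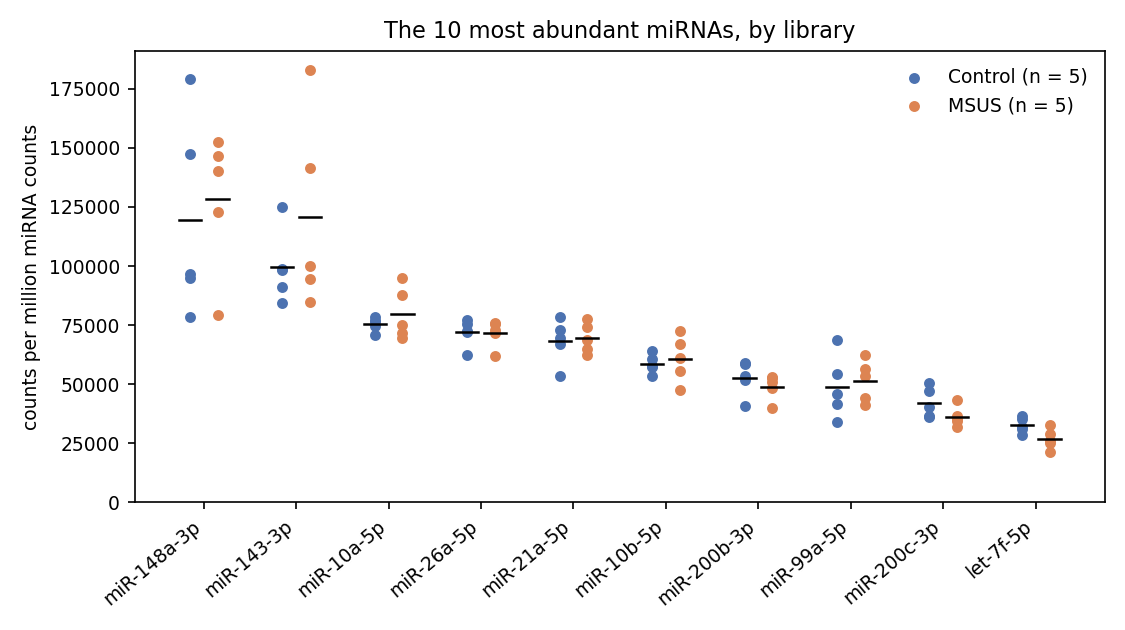
Levels of the 10 most abundant miRNAs (CPM, vertical axis) in 5 Control and 5 MSUS libraries, one point per library, with the group mean as a bar. The groups overlap for each of the 10, and miR-148a-3p and miR-143-3p vary most between libraries.

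Of 233 miRNAs tested with edgeR, 0 (0%) passed an adjusted p of 0.05. DESeq2 and limma voom also called 0. At an unadjusted p under 0.05 there were 13 (5.58%), of which 4 (1.72%) were higher and 9 (3.86%) lower in MSUS. The 2 groups were fully separated for 0 of the 233 (0%). Positive log2 fold changes numbered 117 and negative ones 116, between -0.65 and 0.86, and none exceeded 1 in size.

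The median SE of a log2 fold change was 0.20. For 207 of the 233 miRNAs the 95% interval lay within a 2-fold difference in either direction, and for 103 within a 1.5-fold difference. Differences smaller than these intervals were not resolved with 5 animals per group. Single libraries moved the number at an unadjusted p under 0.05, which was 29 without MSUS 14 and 7 without MSUS 4, while the number called stayed 0.

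**Figure D3:**
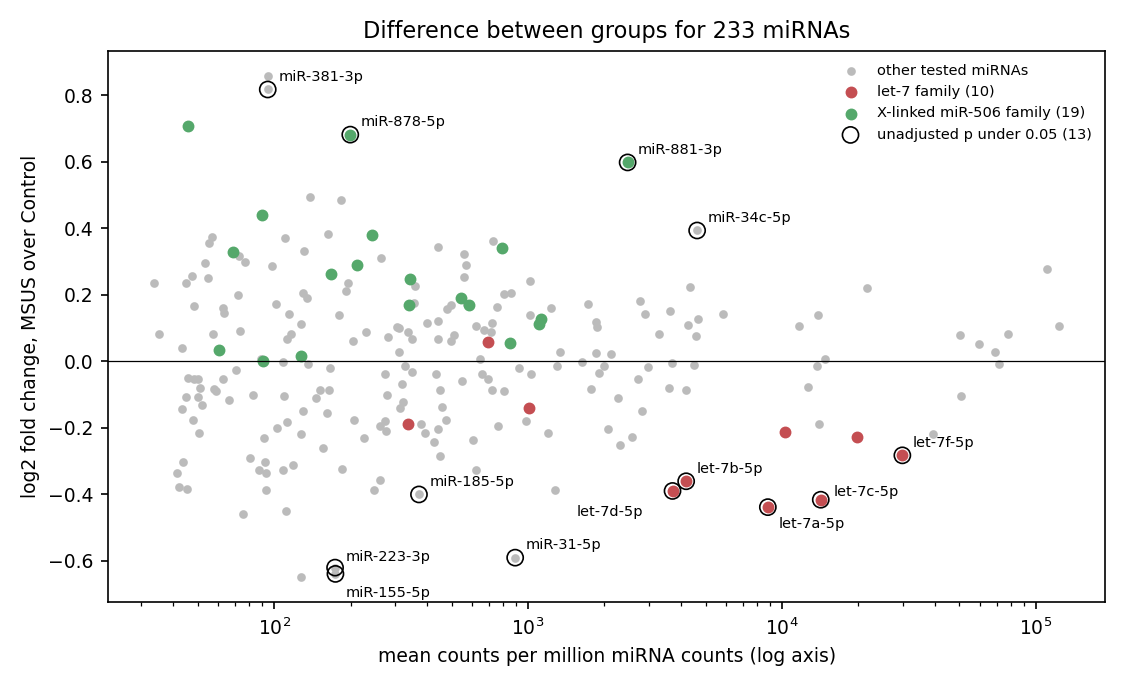
log2 fold change of MSUS over Control (vertical axis) against mean level in CPM (log axis) for 233 miRNAs, with factors computed over miRNAs. Rings mark the 13 miRNAs with an unadjusted p under 0.05, and 9 of 10 let-7 members lie below 0, of which 5 are ringed. Scaled by all RNAs, 4 of the 10 lie below 0.

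The let-7 family, which keeps cells in a differentiated state by repressing growth and stem-cell factors, lay lower in MSUS in most members. With factors from miRNAs, 9 of 10 tested members had a negative log2 fold change (median -0.26, against 0.00 over all tested miRNAs), 5 had an unadjusted p under 0.05, and 0 passed the adjusted threshold. Scaled by all RNAs, 6 were positive and 4 negative with a median of 0.05, while the median of all tested miRNAs was then 0.29. The let-7 median lay below that of all tested miRNAs on either scale. This had to follow, because the change of scaling moves all miRNAs nearly alike.

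The 10 tested let-7 miRNAs took 10.5, 9.73, 9.78, 11.7 and 10.1% of miRNA counts in Control 3, 5, 7, 9 and 11. In MSUS 2, 4, 6, 8 and 14 they took 7.42, 8.53, 6.35, 9.27 and 9.72%. Each MSUS library was below each Control library, but the highest MSUS share (9.72% in MSUS 14) and the lowest Control share (9.73% in Control 5) were almost equal. MSUS 2, 4 and 6 were the 3 libraries well below the Control range.

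The same libraries were low for let-7a-5p, whose values in Control were 9605, 10595, 9995, 11056 and 9389 CPM. In MSUS they were 6284, 6504, 5680, 9364 and 9507 CPM. MSUS 14 lay within the Control range, MSUS 8 just under it and the other 3 far below it. This gave a log2 fold change of -0.44 (SE 0.15, 95% interval -0.75 to -0.13, adjusted p = 0.497).

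let-7c-5p stood at 13214, 16216, 15817, 20298 and 15742 CPM in Control and at 10222, 11433, 10090, 14052 and 15080 CPM in MSUS. Here 3 MSUS libraries lay below all Control libraries, with a log2 fold change of -0.42 (SE 0.14, adjusted p = 0.497). let-7f-5p, the most abundant member, ranged from 28472 to 36424 CPM in Control and from 21378 to 32932 in MSUS (log2 fold change -0.28, SE 0.12, adjusted p = 0.828). The sign turned when scaled by all RNAs, to 0.02 for let-7f-5p.

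Members of the family share one stretch of chromosome 13 on the minus strand, where let-7d-5p (chr13:48536078-48536099), let-7f-5p (chr13:48537889-48537910) and let-7a-5p (chr13:48538239-48538260) follow each other, and a further copy of let-7f-5p lies at chrX:151912353-151912374 (plus strand). let-7d-5p had 4207 ± 406 CPM in Control and 3207 ± 737 in MSUS (log2 fold change -0.39, SE 0.16). let-7b-5p, from chr15:85707325-85707346 (plus strand), had 4716 ± 1066 and 3673 ± 513 CPM (log2 fold change -0.36, SE 0.16), and both remained negative when scaled by all RNAs, at -0.07 and -0.03. Their adjusted p-values were 0.80 and 0.828.

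The remaining members had smaller values. Log2 fold changes were -0.23 (SE 0.12) for let-7g-5p and -0.21 (SE 0.14) for let-7i-5p, and 0.08 and 0.09 when scaled by all RNAs. For let-7e-5p, let-7j and miR-98-5p they were -0.14, -0.19 and 0.06, and 0.19, 0.12 and 0.37 when scaled by all RNAs. let-7k, the remaining member of the list of 11, did not pass the filter on low counts.

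Besides let-7, the miRNAs lower in MSUS at an unadjusted p under 0.05 were miR-223-3p, miR-31-5p, miR-155-5p and miR-185-5p. miR-223-3p, which is made by neutrophils and other myeloid cells, had 226, 270, 190, 164 and 205 CPM in Control. It had 153, 129, 103, 134 and 164 CPM in MSUS. The highest MSUS value (MSUS 14) and the lowest Control value (Control 9) were both 164 CPM, and the other 4 MSUS libraries lay below all Control libraries. Its log2 fold change was -0.62 (SE 0.21, 95% interval -1.07 to -0.18, adjusted p = 0.497), and it rested on as few as 20 counts in a library. Scaled by all RNAs it was -0.36.

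miR-31-5p, an epithelial miRNA, stood at 1329, 797, 604, 1221 and 1387 CPM in Control and at 567, 709, 699, 777 and 809 CPM in MSUS. Control 3, 9 and 11 were high, while Control 5 and 7 fell among the MSUS values (log2 fold change -0.59, SE 0.21, adjusted p = 0.497). Scaled by all RNAs the value was -0.30. The opposite arm of the same hairpin, miR-31-3p, had a log2 fold change of 0.11 (SE 0.37).

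miR-155-5p, a miRNA induced in activated immune cells, ranged from 91.3 to 346 CPM in Control (median 206) and from 85.1 to 176 in MSUS (median 161). The highest value was that of Control 9 (log2 fold change -0.64, SE 0.28, adjusted p = 0.828, and -0.28 when scaled by all RNAs). miR-185-5p, given because it completes the count and chosen after its values were seen, had a log2 fold change of -0.40 and an adjusted p of 0.829, and -0.09 when scaled by all RNAs. On that scale 0 of the tested miRNAs were lower at an unadjusted p under 0.05.

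Among 7 tested miRNAs of blood cells, 6 had a negative log2 fold change (median -0.36, against 0.00 over all tested miRNAs), or 4 of 7 (median -0.09 against 0.29) when scaled by all RNAs. miR-150-5p, typical of lymphocytes, had 1442 ± 536 CPM in Control and 1109 ± 248 in MSUS (log2 fold change -0.39, SE 0.24). miR-486a-5p with its identical copy miR-486b-5p, abundant in red cells, had the 1 positive value (0.25, SE 0.28). miR-146a-5p, also of this list, changed sign when single libraries were left out (-0.10 to 0.069). The 10 blood cell miRNAs in the table took 0.751 ± 0.128% of miRNA counts in Control and 0.684 ± 0.036% in MSUS. Blood cell transcripts summed to 63.1 to 128 CPM of all RNAs in Control and 29.6 to 81.3 in MSUS, and of 13 such genes only Cd74 had counts in every library. As a percent of mRNA counts they took 0.069 ± 0.010 in Control and 0.063 ± 0.021 in MSUS. Whether blood cells contribute to these miRNA values was not tested.

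The X-linked miR-506 family, a fast-evolving group of miRNAs expressed mainly in testis and male reproductive tract, lay higher in MSUS. All 19 tested of 30 members in the table had a positive log2 fold change (median 0.25, against 0.00 over all tested miRNAs). Of all tested miRNAs, 117 of 233 were positive. The 19 stayed positive when scaled by all RNAs (median 0.51 against 0.29), where 208 of 233 miRNAs were positive. That scaling moved miRNAs up nearly alike, so it is no separate support. Without Control 9, Control 11 and MSUS 14 the 19 were positive as well (median 0.24), and 119 of 237 tested miRNAs were. With all libraries, 2 of the 19 had an unadjusted p under 0.05, and 0 passed the adjusted threshold. Their loci lie within 62.4 kb of the X chromosome (GRCm38.p6 66776760 to 66839121), and they carry 14 different seeds, so the members share a position more than a seed. Some are both arms of the same hairpin, so the 19 signs are not 19 separate observations. The filter on low counts asks for a sufficient level in only as many libraries as a single group holds. A member can thus pass through the group where it is high, and the count of signs is a description only. Members that did not pass the filter are not described.

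These 19 miRNAs took 0.997, 0.778, 0.841, 0.659 and 0.997% of miRNA counts in Control 3, 5, 7, 9 and 11. The shares in MSUS 2, 4, 6, 8 and 14 were 1.13, 1.18, 0.969, 1.02 and 0.877%. MSUS 2, 4 and 8 were above all Control libraries, and MSUS 6 and 14 lay within the Control range.

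miR-878-5p had 206, 105, 190, 87.2 and 177 CPM in Control and 245, 303, 240, 268 and 174 CPM in MSUS. All MSUS libraries except MSUS 14 were above all Control libraries (log2 fold change 0.68, SE 0.24, 95% interval 0.17 to 1.19, adjusted p = 0.497). The other arm of this hairpin, miR-878-3p, had a log2 fold change of 0.00 (SE 0.31).

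miR-881-3p, the most abundant member, had 2011, 2158, 2985, 1195 and 1494 CPM in Control. MSUS libraries held 3050, 3926, 2831, 3338 and 1685 CPM. The 3 highest values were from MSUS 2, 4 and 8, and MSUS 14 lay in the lower part of the Control range. Together these values gave a log2 fold change of 0.60 (SE 0.24, adjusted p = 0.769). Scaled by all RNAs it was 0.87 with an adjusted p of 0.046, the 1 miRNA that passed under that scaling, where 208 of 233 miRNAs had a positive value and 29 had an unadjusted p under 0.05, each of them positive.

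Further X-linked members with small p-values were miR-465b-5p with 695 ± 107 CPM in Control and 884 ± 88.6 in MSUS (log2 fold change 0.34, SE 0.17) and miR-871-3p with 208 ± 42.9 and 280 ± 57.5 CPM (0.38, SE 0.20). In both, 4 of 5 MSUS libraries were above all Control libraries. miR-743b-5p had the highest value of the family at 0.71 (SE 0.38), from the lowest level, 33.7 ± 19.2 and 58.0 ± 20.6 CPM. At this level it may have passed the filter on low counts mainly through MSUS. The adjusted p-values of the 3 were 0.829, 0.829 and 0.862.

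**Figure D4:**
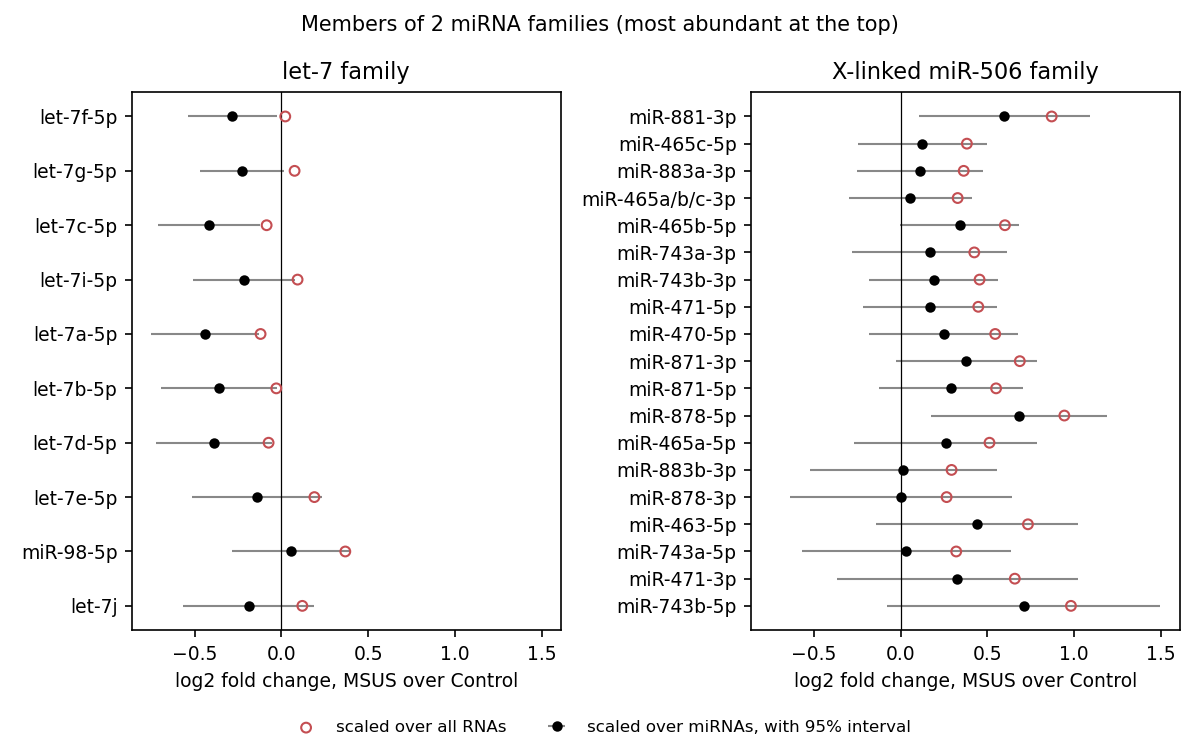
log2 fold change of MSUS over Control for each tested member of the let-7 family (10) and the X-linked miR-506 family (19), with 95% intervals when scaled over miRNAs (filled) and without intervals when scaled over all RNAs (open). All 19 X-linked members are positive on both scales, while 9 let-7 members are negative on the first scale and 4 on the second.

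Outside the X-linked family, miR-34c-5p and miR-381-3p were higher in MSUS at an unadjusted p under 0.05. miR-34c-5p, a miRNA of germ cells and multiciliated epithelia, had 4347, 3220, 5317, 3680 and 3483 CPM in Control and 6475, 6517, 5848, 3784 and 3671 CPM in MSUS. MSUS 2, 4 and 6 were above all Control libraries, whereas MSUS 8 and 14 lay within the Control range (log2 fold change 0.39, SE 0.19, adjusted p = 0.829). All 6 tested members of the miR-34 and miR-449 families had a positive value (median 0.13), and 5 of 6 without Control 9, Control 11 and MSUS 14. Over all tested miRNAs 117 of 233 were positive. Of the 6, 1 had an unadjusted p under 0.05, and some are arms of the same hairpin, so their signs are not separate observations.

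miR-381-3p belongs to the imprinted Dlk1-Dio3 cluster and was low, with 47.6, 119, 84.3, 55.5 and 42.6 CPM in Control and 84.3, 178, 124.7, 159 and 48.4 CPM in MSUS. It rested on 11 to 43 counts per library (log2 fold change 0.82, SE 0.38, adjusted p = 0.829). Of 12 tested members of that cluster 9 had a positive value (median 0.15), against 117 of 233 over all tested miRNAs, and 52 belong to the list.

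**Figure D5:**
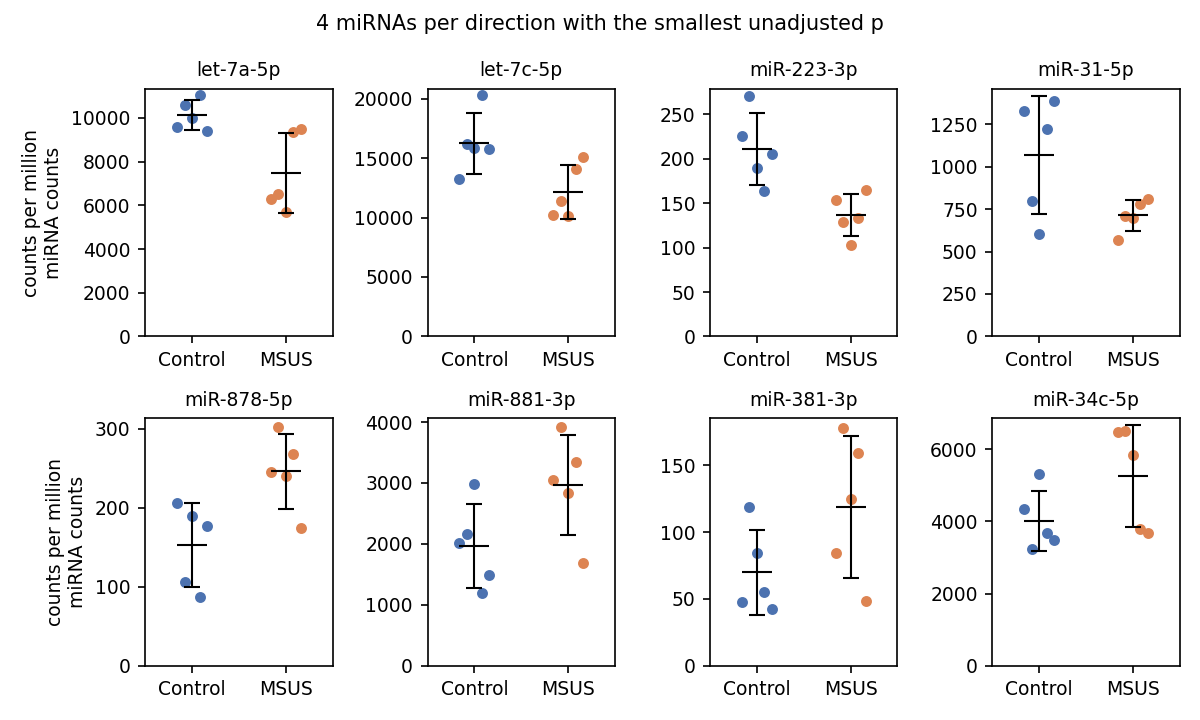
Levels in CPM of the 4 miRNAs per direction with the smallest unadjusted p, one point per library, with the mean and SD (bars) of 5 Control and 5 MSUS libraries. The groups overlap in each of the 8 panels, and for let-7a-5p and let-7c-5p 2 MSUS libraries lie among or next to the Control values.

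The other miRNA groups are given by their medians. Medians of the log2 fold change were 0.01 for 11 other epithelial miRNAs, 0.05 for 7 of the family of miR-10, miR-99, miR-100, miR-125a and miR-125b, and 0.16 for 7 of the miR-30 family. They were -0.05 for 7 tested members of the miR-200 family and -0.02 for 3 of the miR-29 family, and turned positive when scaled by all RNAs (0.22 and 0.29). The median of all tested miRNAs was 0.29 on that scale. For 8 members of the miR-17 and miR-92 clusters, which promote proliferation, 7 values were negative with a median of -0.10, and all 8 were positive when scaled by all RNAs. For 8 miRNAs that earlier work on paternal stress reported in sperm, 4 values were positive and 4 negative (median 0.02).

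Muscle and stroma miRNAs, of which miR-143-3p is the most abundant, had a median of 0.09 over 9 tested, and of -0.07 without Control 9, Control 11 and MSUS 14. miR-126a-3p, the endothelial miRNA, had 3199 ± 289 CPM in Control and 3382 ± 328 in MSUS (log2 fold change 0.08, SE 0.14). The liver and neural miRNAs had a median of 0.28 over 4 tested, of which 3 were positive, and it was 0.29 without Control 9, Control 11 and MSUS 14. Of these, miR-9-5p, a neural miRNA, had 154 ± 58.7 and 214 ± 49.5 CPM (0.48, SE 0.25, adjusted p = 0.829).

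Summing miRNAs that share bases 2 to 8 gave 182 seed families or single miRNAs, of which 0 passed the adjusted threshold and 7 (3.85%) had an unadjusted p under 0.05. The most abundant was the ACCCUGU family of miR-10a-5p and miR-10b-5p, with 133700 ± 6070 CPM in Control and 141404 ± 21669 in MSUS (log2 fold change 0.08, SE 0.11). CAGUGCA, the family of miR-148a-3p, miR-148b-3p and miR-152-3p, followed with 125011 ± 45300 and 134430 ± 30780 CPM (0.10, SE 0.21). The epithelial family AAUACUG of miR-200b-3p, miR-200c-3p and miR-429-3p had 97111 ± 6935 and 88285 ± 6354 CPM (-0.14, SE 0.10, and 0.13 when scaled by all RNAs).

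The GAGGUAG family, which is let-7 without let-7j, with miR-98-5p and miR-1961, held 98571, 102269, 107898, 110943 and 89523 CPM in Control. MSUS libraries held 74781, 84330, 64635, 98471 and 95032 CPM. MSUS 2, 4 and 6 were below all Control libraries, and MSUS 8 and 14 were above Control 11. For the family the log2 fold change was -0.29 (SE 0.12, 95% interval -0.54 to -0.04, adjusted p = 0.837), and 0.01 when scaled by all RNAs. The other 6 of the 7 were single tested miRNAs named above: miR-223-3p, miR-878-5p, miR-31-5p, miR-881-3p, miR-381-3p and miR-155-5p.

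The ratio of the 5p to the 3p arm, which does not depend on scaling between libraries, was tested for 96 hairpins with limma. None (0) passed the adjusted threshold and 6 (6.25%) had an unadjusted p under 0.05. The smallest p was that of miR-350, whose 5p arm took 2.76 ± 0.755% of the hairpin's counts in Control and 0.735 ± 0.721% in MSUS (adjusted p = 0.487). For let-7b the 5p share was 99.5 ± 0.161% and 98.8 ± 0.612%, and for miR-872 it was 89.8 ± 2.93% and 94.99 ± 2.97% (adjusted p = 0.642 for both). The myeloid miR-223 hairpin had 8.12 ± 3.02% of its counts on the 5p arm in Control and 15.8 ± 6.58% in MSUS (adjusted p = 0.775). Hairpins needed only 20 counts over both arms in every library, so a small arm share can rest on few counts. With a pseudocount of 5, 3 of 96 hairpins had an unadjusted p under 0.05. With at least 100 counts in every library 2 of 48 had.

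The profile as a whole was compared along its leading principal components. The first held 28.3% of the variance (exact two-sided permutation test of the scores, p = 0.397). Control 9, Control 11, MSUS 14 and Control 3 had its highest scores at 4.18, 4.18, 3.54 and 1.61, and the first 3 of these are the libraries with the most miRNA counts. MSUS 6, the next by counts, scored -2.11. miR-351-5p and miR-672-5p, named after their loadings were seen, lay at its high end, and miR-381-3p and miR-31-3p on the low end. The second held 16.8% (exact permutation test, p = 0.119), with scores of -3.92 to 1.40 in Control and -0.85 to 4.00 in MSUS. miR-122-5p, a liver miRNA singled out after its loading was seen, led its high end and ranged from 5.29 to 242 CPM over the libraries.

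Among miRNAs with a mean of at least 100 CPM, those that varied most over the 10 libraries were miR-484, miR-142a-3p, miR-31-3p, miR-3535 and miR-155-5p, with SDs of log2 CPM of 0.75, 0.69, 0.68, 0.66 and 0.58. miR-484 ranged from 63.2 to 230 CPM in Control and from 38.3 to 149 in MSUS (log2 fold change -0.65, SE 0.33, adjusted p = 0.829). Thinned to 132142 counts, a library held 437 ± 12.2 different miRNAs in Control and 439 ± 10.8 in MSUS (exact permutation test, p = 0.675).

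Other RNAs in the vesicles were compared as shares of each library. mRNA fragments took 11.9, 12.3, 11.5, 17.1 and 12.3% in Control 3, 5, 7, 9 and 11, and 8.43, 10.4, 9.08, 7.31 and 11.7% in MSUS 2, 4, 6, 8 and 14. Of the 5 MSUS libraries, 4 lay below all Control libraries and MSUS 14 just above Control 7. The means were 13.0 ± 2.28 and 9.39 ± 1.71% (exact two-sided permutation test, p = 0.016, adjusted p = 0.077 over 13 classes, where the smallest p possible is 0.00794).

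The shares of lncRNA (0.992 against 0.781%), pseudogene transcripts (0.538 against 0.418%) and miRNA hairpins (0.090 against 0.060%) were also lower in 4 of 5 MSUS libraries than in any Control library, each with an adjusted p of 0.077. Of 13 classes 0 passed the adjusted threshold, and 4 had an unadjusted p under 0.05. Mature miRNAs took 62.5 ± 7.82% in Control and 65.6 ± 4.13% in MSUS (exact permutation test, p = 0.460), and tRNAs 14.1 ± 6.97 and 14.4 ± 3.34% (exact permutation test, p = 0.960).

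Over all RNAs, 1075 were tested with edgeR and 0 passed the adjusted threshold (DESeq2 also 0), while 84 (7.81%) had an unadjusted p under 0.05. The groups did not overlap for 14 that were lower in MSUS (1.3%), of which 13 were mRNAs and 1 a lncRNA. They also did not overlap for 2 that were higher (0.186%), both among the 230 miRNAs tested here. Factors came from all RNAs here. With factors from miRNAs, the groups were fully separated for 0 of 233 miRNAs. Of 571 mRNAs 442 had a negative log2 fold change (median -0.19), against 26 of 230 miRNAs and 0 of 22 tRNAs. With library size as the only scaling, the median of all RNAs moved to -0.26, that of mRNAs to -0.46, that of miRNAs to 0.04 and that of tRNAs to 0.28. Positive values then numbered 23 of 571 mRNAs, 131 of 230 miRNAs and 17 of 22 tRNAs.

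Larp1, an RNA-binding protein that controls translation of ribosomal protein mRNAs, had the smallest p. It had 45.6, 48.6, 55.9, 45.1 and 41.0 CPM of all RNAs in Control and 20.8, 25.4, 12.1, 26.6 and 19.3 in MSUS, with no overlap, from 4 to 40 counts per library. Its log2 fold change was -1.23 (SE 0.25, adjusted p = 0.132), and with library size as the only scaling -1.48 with an adjusted p of 0.044. Among RNAs other than miRNAs, the next lower ones were Mrfap1 (-0.88), Rtn3 (-0.85), an endoplasmic reticulum shaping protein, Shroom3 (-0.80), which shapes the apical side of epithelial cells, and Surf4 (-0.76), a cargo receptor of secretion. Each had an adjusted p of 0.563.

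Among RNAs other than miRNAs, the smallest p-values in the other direction belonged to the snoRNA Snord61 (log2 fold change 0.79, SE 0.26), the mitochondrial tRNAs mt-Tr (1.18, SE 0.39) and mt-Th (1.10, SE 0.40), the initiator methionine tRNA (0.65, SE 0.27) and the piRNA mmu_piR_004086 (0.85, SE 0.32). Each had an adjusted p of 0.563. For the initiator tRNA, the means were 865 ± 208 CPM of all RNAs in Control and 1363 ± 520 in MSUS, with MSUS 14 at 776, below 4 of the 5 Control libraries. Copies of tRNA genes share reads, so single tRNAs are uncertain.

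Fragments of epididymal epithelium transcripts were summed as a check on the tissue, after their values were seen. They took 6340 to 7245 CPM of all RNAs in Control and 3667 to 5228 in MSUS, with no overlap. The sums of muscle and stroma transcripts (376 ± 129 and 306 ± 116 CPM), vesicle transcripts (221 ± 37.9 and 177 ± 26.7) and blood cell transcripts (90.6 ± 24.6 and 60.1 ± 21.8) also had lower means in MSUS, beside the lower mRNA share. The sperm and spermatid sum did not (286 ± 43.0 and 292 ± 50.9 CPM). As a percent of mRNA counts, that sum was 0.222 ± 0.036 in Control and 0.314 ± 0.041 in MSUS. Means of muscle and stroma (0.284 and 0.321) and vesicle transcripts (0.171 and 0.190) were then also higher in MSUS. The mean of blood cell transcripts was lower (0.069 and 0.063). On this measure the epithelial sum was 5.32 ± 0.748 in Control and 4.55 ± 0.592 in MSUS. Akr1b7, an aldo-keto reductase of the epididymis and vas deferens, held most of the sum. Without it, the sums were 2367 ± 643 and 1782 ± 475 CPM, which overlapped, and as a percent of mRNA counts 1.80 ± 0.207 in Control and 1.89 ± 0.338 in MSUS. Akr1b7 itself had 4178 ± 1135 in Control and 2695 ± 855 in MSUS after TMM scaling (log2 fold change -0.63, SE 0.25, adjusted p = 0.563). Crisp1 and Gpx3 differed by -0.14 (SE 0.20) and -0.01 (SE 0.23). In such bulk libraries fewer vesicles of a cell type and less RNA in each cannot be told apart, and the part of these transcripts in the miRNA values was not tested.

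The same libraries in the table labelled with size selection gave the following log2 fold changes, which are set beside those above and are no second set of animals. For let-7a-5p and let-7c-5p they were -0.27 (SE 0.15) and -0.20 (SE 0.13), for miR-223-3p -0.23 (SE 0.22), and for miR-31-5p -0.49 (SE 0.16). Values for miR-878-5p, miR-881-3p and miR-34c-5p were 0.48 (SE 0.19), 0.46 (SE 0.30) and 0.51 (SE 0.18). Each of these 7 had an adjusted p of 0.869 or above. They are only part of the 13 miRNAs with an unadjusted p under 0.05 in the main test. Values of the others, miR-381-3p among them, are left out here. The 7 therefore do not show how many of the 13 kept their sign in the table labelled with size selection. There miRNAs took 14.0 ± 2.47% in Control and 12.7 ± 2.45% in MSUS (exact permutation test, p = 0.468), a lower mean in MSUS, whereas the mean was higher in MSUS in the table without size selection. lncRNA took 1.18 and 0.80% (exact permutation test, p = 0.00794, the smallest possible, adjusted p = 0.103). The share of mRNA fragments was 30.9 ± 7.18% in Control and 20.8 ± 8.76% in MSUS (exact permutation test, p = 0.087), and tRNAs took 31.2 and 44.5% (exact permutation test, p = 0.159).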

How the data were processed

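The authors deposited estimated counts per annotated RNA, many of them not whole, for cauda epididymosome libraries of 5 Control and 5 MSUS males. The submitters' processing notes name GRCm38 as build, and STAR and edgeR among their tools. Read assignment to annotated RNAs was not given in the sources used here. Estimated counts were rounded, which removed 0.266 to 0.689% of a library's counts.

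Tests used edgeR 4.0.16 in R 4.3.3 (filterByExpr, TMM, robust quasi-likelihood, Benjamini-Hochberg, threshold 0.05), with library sizes summed over miRNAs, or over all RNAs for the all-RNA test. Arm ratios used limma 3.58.1 on hairpins with at least 20 counts in every library and a pseudocount of 0.5. Shares, detection and components used exact two-sided permutation tests in SciPy 1.17.1. DESeq2 1.42.0, voom, other scalings and filters, and leaving out libraries were alternatives. The fits were tested on simulated data with planted changes larger than those reported here. That does not show whether differences of the reported size would be found.

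Named miRNAs are the 10 most abundant, the 8 with the smallest p per direction, the 5 most variable above 100 CPM and the 2 most abundant of each list. All let-7 and X-linked members may be given. For other features, the 5 most abundant or the 5 with the smallest p (per direction for other RNAs) are named. The members and lists were chosen with earlier results of these data known. Totals per library are given with the results. Arms were matched by their full names, and miRNAs with an identical mature sequence are one feature.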

Additional observations from a re-analysis of the deposited data

Results flagged for a closer look

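In 140 groups of 5 libraries, 7 had a single library far from the other 4. By chance about 1 in 20 such groups would have one if the groups were independent. They share the same libraries, so whether chance alone gives this number was not tested.

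For miRNAs, MSUS 6 had 654 CPM of miR-29b-3p, a regulator of collagen genes, with the next MSUS library at 414. MSUS 8 had 5605 CPM of miR-146a-5p, an immune regulator, with the next at 4324. Control 5 had 756 CPM of miR-127-3p, a member of the Dlk1-Dio3 cluster, with the next at 523. In MSUS 2 the 5p arm of let-7b took 97.8% of the hairpin's counts, with the next library at 98.9%.

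Control 9 stood apart in both its mRNA share (17.1%, next 12.3%) and its lncRNA share (1.34%, next 0.937%). Without Control 9, the difference of MSUS from Control was -2.61 percentage points for mRNA, against -3.62 with it, and -0.13 against -0.21 for lncRNA. Control 7 held 415 different miRNAs after thinning, with the next Control library at 439.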

How the results depend on the processing

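Of the 48 named miRNAs, 25 kept their sign under every alternative run, at most 18 each. Counts of adjusted calls stayed 0 for miRNAs, seed families, all RNAs, arm ratios and classes (0 to 0 leaving out each library), except 1 miRNA (miR-881-3p) scaled by all RNAs and 1 RNA (Larp1) with library size only. Unadjusted p under 0.05 was met by 35 of 861 miRNAs without a count filter, by 7 to 29 leaving out one library, and by 166 RNAs with library size only (5 higher, 161 lower). Arm ratios gave 3 with a pseudocount of 5 and 2 of 48 at 100 counts. Scaling by all RNAs moved the median miRNA from 0.00 to 0.29, and the sign of these log2 fold changes turned: miR-26a-5p (0.30), miR-200b-3p (0.16), miR-200c-3p (0.082), let-7f-5p (0.022), let-7g-5p (0.076), miR-142a-3p (0.16), miR-3535 (0.18), miR-182-5p (0.13), miR-183-5p (0.052), miR-92a-3p (0.27), miR-25-3p (0.19), miR-29a-3p (0.29), miR-30d-5p (0.21), miR-146a-5p (0.30), miR-379-5p (0.064) and the seed families of miR-200b-3p (0.13) and let-7f-5p (0.010). Without Control 9, Control 11 and MSUS 14 it turned for miR-148a-3p (-0.011) and its seed family (-0.0048), miR-21a-5p (-0.057), miR-10b-5p (-0.016), miR-31-3p (-0.067), miR-3535 (0.39), miR-92a-3p (0.060), miR-25-3p (0.063), miR-29a-3p (0.10), miR-146a-5p (0.080), miR-126a-5p (-0.024) and the snRNA share (0.487 points). It also turned for miR-21a-5p with library size only (-0.00017), miR-142a-3p with voom (0.19), the snRNA share on a log2 scale (0.0088) and detection without thinning (-8.20 miRNAs). The cause of these turns was not tested.

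Leaving out one library at a time turned signs within -0.062 to 0.040 for miR-26a-5p, -0.043 to 0.099 for miR-21a-5p, -0.029 to 0.22 for miR-99a-5p, -0.37 to 0.10 for miR-142a-3p, -0.094 to 0.43 for miR-31-3p, -0.65 to 0.13 for miR-3535, -0.083 to 0.11 for miR-92a-3p, -0.15 to 0.076 for miR-25-3p, -0.11 to 0.061 for miR-29a-3p, -0.12 to 0.20 for miR-29b-3p, -0.10 to 0.069 for miR-146a-5p, -0.026 to 0.30 for miR-126a-5p, -0.044 to 0.23 for miR-128-3p, -0.40 to 0.017 for miR-379-5p, -0.014 to 0.11 and -0.024 to 0.27 for the seed families of miR-10a-5p and miR-148a-3p, -2.66 to 6.80 for the number of miRNAs, and, in percentage points, -0.29 to 0.025 for Y, 7SK, 7SL and vault RNA, -0.043 to 0.18 for mitochondrial RNA, -0.26 to 0.29 for snRNA, -0.078 to 0.17 for snoRNA and -1.73 to 3.05 for tRNA. No paired analysis was possible because the groups hold different animals and share no animal number. List counts scaled by all RNAs, and list counts and class shares without the 3 libraries, were chosen after seeing the data.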
